A study of Mus musculus with 134 samples.

Results

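Gene expression was compared between libraries made from 100 and from 10000 mouse embryonic stem cells (mESCs) by SET-seq, a method that reads a histone mark and cytoplasmic RNA from the same cells. The 8 expression libraries compared are those whose titles name SET-seq with H3K4me3 or H3K27me3 and either cell number, 2 replicates for each antibody and number, among 134 samples in the series. The 4 libraries of 1000 cells, prepared with the same antibodies, showed the order in between, and 4 libraries of 100 and 10000 cells without an antibody served as a separate comparison. All of these cells were labelled E14 of strain 129/Ola, untreated and at day1, and were grown in serum with leukemia inhibitory factor (LIF) on gelatin. The E14 cells are 1 established line, and the labels do not say whether replicates came from separate cultures, so that p-values measure the spread between these libraries, which may be technical.

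In SET-seq the cell membrane is lysed, the nuclei are held back on lectin-coated beads for antibody-directed tagmentation of chromatin, and the RNA of the supernatant is reverse transcribed from its poly(A) tail with an oligo-dT primer. The hybrid of mRNA and cDNA is then cut and tagged directly by Tn5. The antibody therefore names the chromatin assay that the nuclei went to and was not added to the RNA. Abundant cytoplasmic mRNAs of a dividing stem cell are those of ribosomal proteins, translation factors and energy metabolism. Histone mRNAs of the replicating cell end in a stem-loop in place of a poly(A) tail, and several noncoding RNAs are kept in the nucleus or are made without a tail.

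The libraries held between 1440010 and 8602574 counted read pairs. Those of 100 cells were the deepest, with 7437033 to 8602574 counts against 1440010 to 4347796 with 10000 cells, and reads of the same molecule copied in the PCR could not be told apart because no molecular identifiers were used. Rn45s, the precursor of the ribosomal RNAs, was left out before any other value was computed. Values below are CPM outside Rn45s after TMM scaling (normalised CPM), and groups of 4 libraries are listed as H3K4me3 replicates 1 and 2 followed by H3K27me3 replicates 1 and 2. The cells carried the markers of their label in all 8 libraries. All 30 pluripotency factors passed the filter on low counts, and their summed level was 14785 to 15174 normalised CPM with 100 cells and 12665 to 12929 with 10000 cells. In bulk libraries fewer cells of a type and less RNA per cell cannot be told apart. Hprt, a purine salvage enzyme that the E14TG2a line is known to lack, was counted in all of them, at 432 to 505 normalised CPM with 100 cells and 256 to 293 with 10000 cells, and the allele that the cells carry was not tested.

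Fewer genes were seen with 100 cells, although these libraries were sequenced more deeply. After every library had been thinned to 1220628 counts outside Rn45s, 11820.0, 12106, 11404 and 11557 genes had a count with 100 cells. In libraries of 10000 cells 13948, 14732, 15470.0 and 16230.0 genes were seen. Those of 1000 cells held 14037, 13940.0, 13479 and 14056. The groups of 100 and 10000 cells did not overlap, and their means differed by -3373 genes (11722 ± 308 against 15095 ± 979, SD, n = 4 each, two-sided exact permutation test, p = 0.0286, the smallest that 4 against 4 libraries allow). The difference fell to 713 genes when at least 5 counts were asked for, 10004 ± 30.1 against 10717 ± 191 (SD, n = 4 each, exact permutation test, p = 0.0286). At equal depth, 340 genes had a count in all 4 libraries of 10000 cells and in none of 100 cells, and 1 gene showed the reverse. The libraries of 100 cells shared 9806 of the 13935 genes seen in any of them (70.4%), those of 1000 cells 11688 of 16751 (69.8%), and those of 10000 cells 12282 of 18620 (66.0%).

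In the co-assay, the counts of 100 cells were also gathered on fewer genes. The 100 genes with most counts took 23.5, 24.1, 23.7 and 24 percent of the counts outside Rn45s with 100 cells. Libraries of 10000 cells gave them 20.3, 20.1, 19.9 and 19.9 percent and libraries of 1000 cells 22.9, 22.3, 22 and 22.2 percent, so that the 3 cell numbers formed separate steps. The means were 23.8 ± 0.283 percent with 100 cells and 20.0 ± 0.181 percent with 10000 cells (SD, n = 4 each, two-sided exact permutation test, p = 0.0286). The libraries without an antibody did not show this order, with 26 and 22.4 percent at 100 cells and 27.7 and 24.5 percent at 10000 cells. Rn45s took 27.7 ± 2.84 percent of all counts with 100 cells and 19.6 ± 3.72 percent with 10000 cells (SD, n = 4 each, exact permutation test, p = 0.0286), and its share with 1000 cells, 34.2, 23.1, 24.9 and 23.8 percent, overlapped both groups. The median exon length of a gene, weighted by its counts, was 2402 ± 15.6 bases with 100 cells and 2496 ± 10.5 bases with 10000 cells (SD, n = 4 each, exact permutation test, p = 0.0286). The median length with 1000 cells, 2340.0, 2304, 2385 and 2330.0 bases, did not lie between them.

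**Figure D1:**
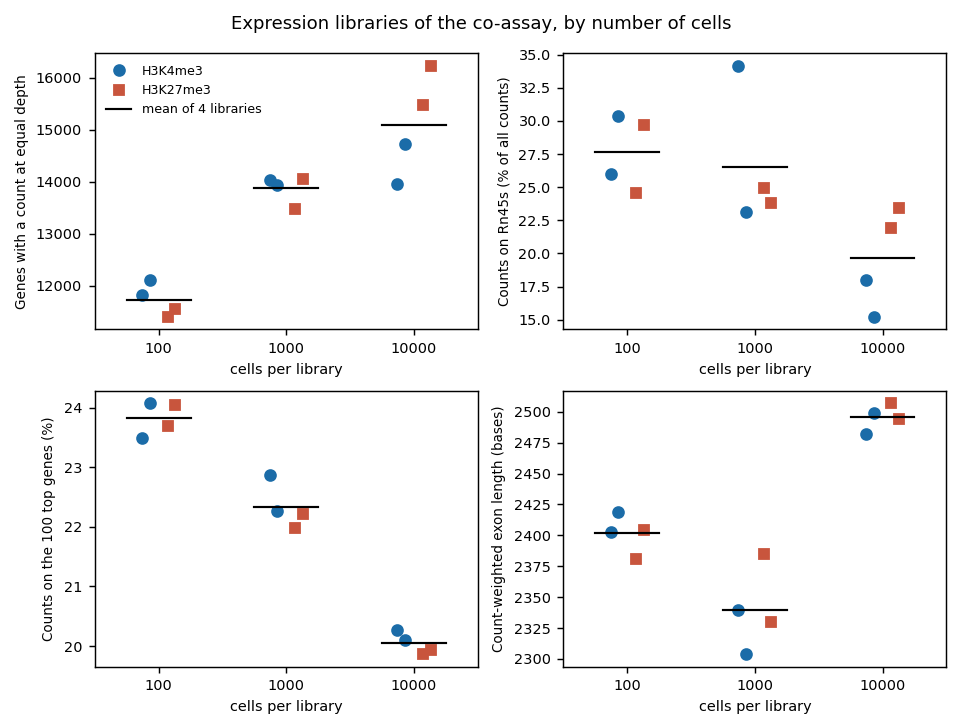
Measures of the 12 co-assay expression libraries by number of cells: genes with a count after thinning to equal depth, share of all counts on Rn45s, share of counts outside Rn45s on the 100 genes with most counts, and median exon length weighted by counts. Each point is 1 library, colours are the antibodies and bars are means of 4 libraries; the libraries of 100 cells lie at 11404 to 12106 genes, below all libraries of 1000 and 10000 cells.

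Gene by gene, 1649 of 12497 genes tested (13.2%) differed between 100 and 10000 cells at an adjusted p under 0.05, with the antibody as a block. Of these, 989 (7.91% of genes tested) were higher and 660 (5.28%) lower with 100 cells, and 335 (2.68%) differed more than 2-fold. The 4 libraries of each cell number did not overlap in 2657 genes (21.3%). The genes named below are the 12 highest and 12 lowest fold changes among genes past the test with a mean of at least 10 normalised CPM and no overlap between the groups, and members of gene lists with the smallest p. Scaling moved the direction of many calls: with library totals alone, which shifted the median gene by -0.17 on the log2 scale, 562 genes were higher and 1198 lower. The size factors of DESeq2 in the same test gave 965 higher and 684 lower, and DESeq2 itself, with its own test over 20087 genes, called 964 higher and 973 lower. The count was 1030 to 1861 when 1 library was left out, lowest without H3K27me3 replicate 2 of 10000 cells. Directions below are those relative to the TMM scale, whose median over all genes tested was -0.07, and the named genes that lost their call with library totals are given in the closing section.

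The gene list with most members higher with 100 cells was that of the ribosomal proteins. Of 84 genes on the list, 81 were tested, 44 were higher with 100 cells, 2 were lower and 35 did not pass. Their median log2 fold change was 0.58 beside -0.07 over all genes. Over all genes tested 7.91% were higher and 5.28% lower. In the highest quintile of mean level over the 8 libraries, 28.8% were higher and 10.4% lower. The shortest quintile of those abundant genes had 38.6% higher, with a median of 0.27. The list was not matched for level or length. The summed level of the list was 84322 to 90904 normalised CPM with 100 cells, 76258 to 84177 with 1000 cells and 61159 to 65984 with 10000 cells. Rpl36 (chr17:56752818-56753669, mm9), a protein of the large subunit, stood at 844, 876, 859 and 825 normalised CPM with 100 cells and at 262, 187, 237 and 282 with 10000 cells. Every library of 100 cells was above every library of 10000 cells (log2 fold change 1.81 ± 0.10 SE, adjusted p = 2.41e-07). Rplp2 (chr7:148633550-148637258), part of the stalk of the large subunit, was at 790.2, 735, 825 and 801 against 285, 225, 279.8 and 299.7 (log2 fold change 1.53 ± 0.08 SE, adjusted p = 1.75e-07). Rpl19 (chr11:97888024-97891807) and Rpl7a (chr2:26766327-26768831), both of the large subunit, had log2 fold changes of 1.60 and 1.56. Rps9 (chr7:3655643-3658499), of the small subunit, was at 1726, 1742, 1927 and 1939.8 with 100 cells and 930.2, 927, 896 and 917 with 10000 cells (log2 fold change 1.00 ± 0.06 SE, adjusted p = 3.08e-07). Not all members moved. Rpl41 (chr10:127985166-127986224), a short protein of the large subunit and among the 10 genes with most counts, was at 4207, 5268, 4113 and 5485 with 100 cells and 5125, 3823, 4679 and 5182 with 10000 cells, which overlap (log2 fold change 0.02 ± 0.10 SE, adjusted p = 0.94). Rack1 (chr11:48613862-48619743), a scaffold protein of the small subunit that is not on the list and is also among the genes with most counts, was at 4240.4 ± 85.8 against 4239 ± 298 (SD, n = 4 each) with a log2 fold change of 0.00. Rps3, of the small subunit and of the list, was higher with a log2 fold change of 0.64. Ribosomal protein genes have many processed copies in the genome, and read pairs that matched several places were not counted, so that levels of single members, of Rps4l and of the unnamed model Gm6402 are uncertain. Rps4l was at 1285 ± 62.7 with 100 cells and 503 ± 20.8 with 10000 cells (SD, n = 4 each, adjusted p = 6.39e-08), and Gm6402 (chr17:30531770-30533125) had the highest fold change under the rule, at 18.9, 18.7, 21 and 19.5 against 3.54, 0.766, 1.48 and 6.93.

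The gene with most counts outside Rn45s was Lars2 (chr9:123276045-123371793), the leucyl-tRNA synthetase of mitochondria. Its level was 29273, 32016, 28153 and 31181 normalised CPM with 100 cells, 19559, 14901, 15616 and 15928 at 1000 cells and 10530.3, 12511, 11449 and 9853 at 10000 cells, with no overlap between the 3 numbers of cells (log2 fold change 1.44 ± 0.06 SE, adjusted p = 1.73e-08, 100 against 10000 cells). Lars2 alone took 2.90 ± 0.146 percent of the counts outside Rn45s with 100 cells and 1.19 ± 0.121 percent with 10000 cells (SD, n = 4 each). Whether all of its counts come from its mRNA was not tested.

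Other parts of protein synthesis, protein breakdown and respiration moved in the same direction as the ribosomal proteins in smaller steps. Of 61 translation factors tested, 25 were higher with 100 cells and 4 lower, with a median log2 fold change of 0.35. Eif3k (chr7:29756391-29766907) and Eif3e (chr15:43081586-43114282), subunits of the initiation factor that binds the small ribosomal subunit, had log2 fold changes of 0.96 and 0.83, and Eef1g (chr19:9041531-9052670), of the elongation factor complex, had 0.57. Eef1b2 (chr1:63223405-63227060), the exchange factor of the same complex, went the other way at 1854, 1885, 1901 and 1809.8 with 100 cells and 2947, 3037, 2725 and 2723 with 10000 cells (log2 fold change -0.62 ± 0.05 SE, adjusted p = 5.32e-06). Of 80 nuclear genes of the respiratory chain tested, 42 were higher with 100 cells and 4 lower, with a median of 0.35. Over all genes tested 7.91% were higher, and 28.8% in the highest quintile of level. The shortest quintile of the latter had a median of 0.27, and neither list was matched for level or length. Cox4i1 (chr8:123192125-123198109), a subunit of cytochrome c oxidase, was at 1369.6, 1532, 1445 and 1329 with 100 cells and 848, 728, 827 and 814 with 10000 cells (log2 fold change 0.82 ± 0.07 SE, adjusted p = 7.01e-06). Ndufs7 (chr10:79712194-79719539, of complex I), Atp5d (chr10:79605020-79608573, of the ATP synthase) and Cox8a (chr19:7289648-7292106, of cytochrome c oxidase) had log2 fold changes of 0.90, 0.91 and 0.67.

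Proteasome subunits were higher with 100 cells in 17 of 37 genes tested, none was lower by the same edgeR test (0 at an unadjusted p under 0.05), and the median log2 fold change was 0.32. Beside this, 7.91% of all genes tested and 28.8% of the highest quintile of level were higher. The list was not matched for level or length. Psmd4 (chr3:94836613-94846536), the ubiquitin receptor of the regulatory particle, was at 445, 370.0, 359 and 376 normalised CPM with 100 cells and at 133, 133, 137 and 125 with 10000 cells. Its libraries of 1000 cells, at 328, 328, 329 and 263, were nearer to those of 100 cells (log2 fold change 1.55 ± 0.09 SE, adjusted p = 3.08e-07, 100 against 10000 cells). Psmd6 (chr14:14944699-14953459), Psmc6 (chr14:45949499-45968746) and Psmd1 (chr1:87961194-88035870), all of the regulatory particle, had log2 fold changes of 1.11, 0.96 and 0.61.

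Outside the gene lists the highest fold changes under the rule were of Gm6402 and of Pfdn4, Top1, Tpt1, Mxra7 and Mob1b. Top1 (chr2:160471633-160548499), the DNA topoisomerase that relaxes supercoils, was at 143, 151, 125 and 128 with 100 cells and at 48.6, 38.3, 38.6 and 46.8 with 10000 cells (log2 fold change 1.64 ± 0.14 SE, adjusted p = 5.32e-06). Pfdn4 (chr2:170321928-170344570), a subunit of the prefoldin chaperone, shares 30.5% of its exon bases with another gene and was at 98, 90.9, 70 and 95.7 against 28.8, 25.3, 23.8 and 25.8 (log2 fold change 1.76 ± 0.17 SE). Tpt1 (chr14:76245063-76248110), the translationally controlled tumour protein, had a log2 fold change of 1.57, and Mxra7 (chr11:116664714-116689441) one of 1.57. Mob1b (chr5:89149896-89187480), an activator of Hippo pathway kinases, was at 13, 20.5, 7.7 and 30 normalised CPM over the 4 libraries of 100 cells against 5.57, 6.89, 5.2 and 5.54 with 10000 cells (log2 fold change 1.62 ± 0.47 SE, adjusted p = 0.037), and it lost its call with library totals (adjusted p = 0.0572) and at equal depth (adjusted p = 0.0601).

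**Figure D2:**
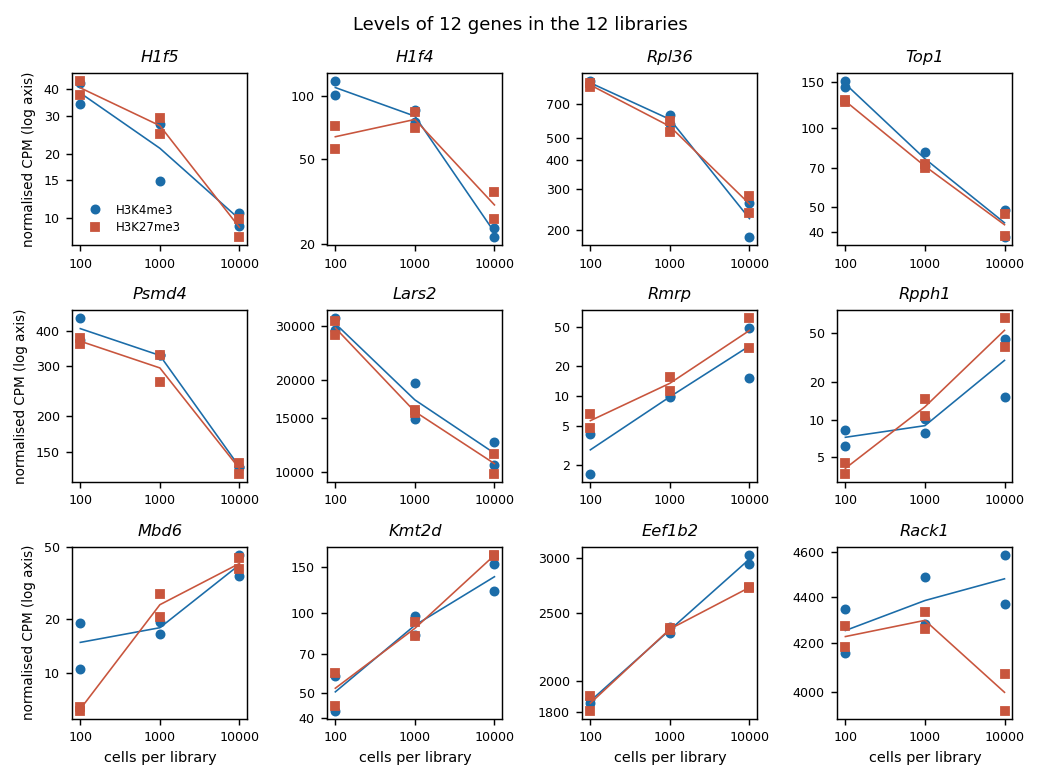
Normalised CPM outside Rn45s, on a log axis with a range of its own for each gene, of 12 genes in the 12 libraries of 100, 1000 and 10000 cells. Points are libraries, colours are antibodies and lines join the means of 2 replicates; H1f5, Rpl36, Top1 and Lars2 step down and Rmrp, Mbd6, Kmt2d and Eef1b2 step up with the number of cells, while the libraries of Rack1 overlap between 100 and 10000 cells.

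Replication-dependent histone genes had mostly positive fold changes. Of 69 genes, 45 were tested, 5 were higher with 100 cells and 1 was lower, near the 7.91% and 5.28% of all genes tested. A positive log2 fold change was found in 37, with a median of 0.90. These mRNAs end in a stem-loop, which a search for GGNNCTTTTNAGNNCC on the strand of the gene, in its last 200 bases and the 30 bases after it, found in 55 of the 69 genes and in 0.0120% of 25038 other genes. The stem-loops of the linker histone genes H1f4 and H1f5, of the core histone gene H2ac8 and of H4c14, which went the other way, are shown because the primer of these libraries binds poly(A) and they mark transcripts whose usual end has none. Capitals mark the 16 bases of the stem-loop in the NCBIM37 genome, which is the mm9 build.
H1f4, minus strand, chr13:23713647-23713670: caaaGGCTCTTTTCAGAGCCaccc
H1f5, minus strand, chr13:21871702-21871725: caaaGGCTCTTTTCAGAGCCacct
H2ac8, minus strand, chr13:23662533-23662556: caaaGGCTCTTTTCAGAGCCattc
H4c14, minus strand, chr3:96066858-96066881: taacGGCCCTTTTTAGGGCCaacc

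H1f5 (chr13:21871701-21872494) was at 34.1, 42.5, 37.4 and 43.6 normalised CPM with 100 cells, 27.5, 14.9, 24.6 and 29.4 at 1000 cells and 10.6, 9.19, 8.16 and 9.97 at 10000 cells (log2 fold change 2.04 ± 0.26 SE, adjusted p = 0.000151, 100 against 10000 cells). H1f4 (chr13:23713646-23714427) was at 117, 101, 56 and 71.8 with 100 cells and 23.8, 21.4, 26 and 34.9 with 10000 cells (log2 fold change 1.62 ± 0.24 SE, adjusted p = 0.00049), and H2ac8 (chr13:23662532-23663089), a histone H2A gene, at 197, 240.1, 216 and 209 against 90.1, 139, 112 and 87 (log2 fold change 1.03 ± 0.14 SE). The other members that rose were H2ac10 and H1f1. H1f4, H1f5 and H2ac8 were named because they passed, and the relation of the stem-loop letters to the fold change was not tested. H4c14 (chr3:96066857-96067240), a histone H4 gene, held 1 count in the 4 libraries of 100 cells together and 146 in those of 10000 cells. Per count outside Rn45s this is a ratio of 434 (95% exact interval 76.6 to 17247, counting error only), and its level was 7.39, 5.25, 5.57 and 4.91 normalised CPM with 1000 cells and 14.2, 13, 17.1 and 21.6 with 10000 cells (adjusted p = 6.38e-05). Histone genes have close copies, so that the levels of single members are uncertain. Between the summed levels of the list, 662 to 893 with 100 cells and 382 to 438 with 10000 cells, there was no overlap, and the range with 1000 cells was 589.6 to 831.

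The lowest fold changes with 100 cells under the rule were those of a pair of short noncoding RNAs that are made by RNA polymerase III and act in RNA processing. Rmrp (chr4:43505657-43505931), the RNA of RNase MRP, was at 4.08, 1.63, 4.72 and 6.54 normalised CPM with 100 cells, 9.75, 9.92, 15.7 and 11.3 at 1000 cells and 49.1, 15.3, 30.4 and 62 at 10000 cells (log2 fold change -3.26 ± 0.43 SE, adjusted p = 0.000198). Rpph1 (chr14:51427122-51427446), the RNA of RNase P, was at 6.12, 8.34, 3.67 and 4.48 with 100 cells and 44.5, 15.3, 38.6 and 65.7 with 10000 cells (log2 fold change -2.87 ± 0.43 SE, adjusted p = 0.000464). H3K4me3 replicate 2 was the lowest library of 10000 cells for both, and still above all libraries of 100 cells. They were the members of the list of nuclear-retained noncoding RNAs that passed the test, 2 of 12 tested, and none was higher, with a median log2 fold change of -0.97. Malat1 and Tug1, long RNAs of the nucleus and the most abundant of that list, had means of 99.2 and 62.6 normalised CPM with 100 cells and 100.1 and 60.1 with 10000 cells (log2 fold changes -0.01 and 0.04, adjusted p = 0.98 and 0.948). Of 13 cytoplasmic noncoding RNAs tested, none was higher and 3 were lower, all of them host genes of small nucleolar RNAs. Rmst stands on both lists of noncoding RNAs, so that the lists are not fully separate. Over all genes tested 5.28% were lower and 7.91% higher, so that none higher among 12 or 13 genes is near that share. Snhg8 (chr3:123210470-123211254), with 16.6% of its exon bases shared with another gene, was at 25.6, 34.8, 18.7 and 21.9 against 63.8, 59, 57.9 and 73.4 (log2 fold change -1.37 ± 0.21 SE), and Snhg5 (chr9:88415891-88417735) and Snhg4 (chr18:35713064-35717970) had log2 fold changes of -0.64 and -1.54. Of 116 genes of small nucleolar and Cajal body RNAs, 52 had no count in the 8 libraries and 6 were tested. Snord52 (chr17:35087895-35087953), a guide RNA of rRNA methylation, had no count with 100 cells and 9, 4, 6 and 10 counts with 10000 cells, which is at least 28.7-fold higher with 10000 cells per count outside Rn45s, against a floor of 3 counts over the 4 libraries.

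The other genes with the lowest fold changes under the rule include a receptor, a transporter and adhesion proteins. Mbd6 (chr10:126719012-126726074), a protein with a methyl-CpG binding domain, was at 10.6, 19.1, 6.47 and 6.2 normalised CPM in libraries of 100 cells against 45.5, 34.5, 37.9 and 43.5 at 10000 cells (log2 fold change -2.05 ± 0.32 SE, adjusted p = 0.000761). Its H3K27me3 libraries of 100 cells were below its H3K4me3 libraries of 100 cells, and all 4 were below those of 10000 cells. Lpar5 (chr6:125017938-125034062), a receptor of lysophosphatidic acid, was at 6.49, 5.49, 5.6 and 2.93 against 21.8, 31.4, 17.1 and 18.8 (log2 fold change -2.11 ± 0.38 SE). Tmem189 (chr2:167468725-167487044), an enzyme of plasmalogen synthesis, Miga2 (chr2:30219753-30241039), a protein of mitochondrial fusion, and Itga3 (chr11:94905789-94938125), an integrin subunit, had log2 fold changes of -2.40, -2.25 and -2.10. Those of Tbc1d24 (chr17:24312376-24342507), a TBC domain protein, Sema5b (chr16:35541448-35664344), a semaphorin, Mtss2 (chr8:113245376-113265301), a protein of membrane bending, and Slc52a2 (chr15:76369260-76378308), a riboflavin transporter, were -2.01, -1.94, -1.88 and -1.87. Sema5b was at 10.2, 19.7, 8.75 and 0.517 with 100 cells, with the last library far below the others, against 29.9, 29.1, 40.1 and 32.4 with 10000 cells. Over all annotated genes, 5575 had no count in any library of 100 cells and a count in at least 1 of 10000 cells, and 211 showed the reverse. Mroh2a, Tns2 and Loxl1, among those with most counts, held 53, 42 and 36 counts in the libraries of 10000 cells together, which is at least 52.5-, 41.6- and 35.6-fold higher with 10000 cells per count outside Rn45s, against the same floor of 3 counts. H3K27me3 replicate 2, the deepest library of 10000 cells, held 35 of the 53 counts of Mroh2a. The 4 of the reverse kind, Vmn2r73, Otud6a, Tex43 and Vmn1r172, held 39 to 45 counts, each in 2 of the 4 libraries of 100 cells and none in the other 2: Vmn2r73 had 25 counts in H3K4me3 replicate 2 and 20 in H3K27me3 replicate 2. Per count these are at least 5.05-, 4.49-, 4.38- and 4.38-fold higher with 100 cells.

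Chromatin genes that passed went in both directions. The list held 41 genes of PRC2 and PRC1, which write and read H3K27me3 and H2A ubiquitin, and of the H3K4 methyltransferase complexes. With 100 cells 6 were higher, 5 were lower and 30 did not pass, with a median of -0.03. Over all genes tested 7.91% were higher and 5.28% lower. The grouping by complex below was seen in the values and was not tested. The core subunits of PRC2 were among those that were higher. Suz12 (chr11:79806608-79847625), its scaffold, was at 383, 347, 359 and 435 with 100 cells and 224, 256, 242 and 239 with 10000 cells (log2 fold change 0.67 ± 0.09 SE, adjusted p = 0.000268), and the histone-binding Rbbp4 (chr4:128984344-129012614) and Rbbp7 (chrX:159198304-159217022), which are shared with other complexes, had log2 fold changes of 0.86 and 0.67. Ezh2, the methyltransferase, and Eed, which binds its product, had log2 fold changes of 0.48 and 0.41. Kmt2d (chr15:98662100-98701636), an H3K4 methyltransferase of enhancers, went the other way, rising from 42.7, 57.9, 44.4 and 59.4 in libraries of 100 cells through 97.2, 82.6, 82.2 and 92.9 at 1000 to 153, 122, 165 and 166 at 10000 cells (log2 fold change -1.57 ± 0.15 SE, adjusted p = 1.54e-05). Setd1a, an H3K4 methyltransferase of promoters, and Kdm2b, which brings PRC1 to CpG islands, were lower as well, with log2 fold changes of -1.19 and -0.77, and so were the PRC1 genes Phc1 at -0.49 and Pcgf1 at -0.96.

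Genes of stem cell identity differed in both directions. Of 30 pluripotency factors, 6 were higher with 100 cells, 2 were lower and 22 did not pass, beside 7.91% and 5.28% of all genes tested, with a median of 0.20. Sox2 (chr3:34548917-34551382), a core factor, was at 233, 216, 185 and 217 normalised CPM with 100 cells and 119.9, 113, 134 and 140.2 with 10000 cells (log2 fold change 0.74 ± 0.11 SE, adjusted p = 0.00056), and Dppa5a (chr9:78214861-78216006), an RNA-binding protein of the naive state, was at 2548, 2709, 2342 and 2623 against 1629.5, 1688, 1668 and 1573 (log2 fold change 0.64 ± 0.06 SE, adjusted p = 8.36e-06). Sall4 (chr2:168573832-168592701) and Trim28 (chr7:13609501-13616381), a zinc finger factor and a corepressor, had log2 fold changes of 0.50 and 0.33. The growth factor genes Fgf4 and Gdf3 were lower, with log2 fold changes of -0.43 and -0.44. Nanog, Esrrb and Klf4, with means of 1127, 358 and 357 normalised CPM with 100 cells and 1256, 396 and 384 with 10000 cells, did not pass (log2 fold changes -0.16, -0.15 and -0.11). Pou5f1 did not pass either, at a log2 fold change of 0.33, and its level is uncertain because of related copies. Of 17 response genes of LIF, BMP and ERK tested, Etv5 and Id1, transcriptional regulators, had log2 fold changes of 0.33 and 0.69, and Lifr (chr15:7079572-7147489), the LIF receptor, was lower at 50.7, 80.5, 57.6 and 66.3 with 100 cells and 94.1, 106, 97.2 and 87.3 with 10000 cells (log2 fold change -0.59 ± 0.16 SE, adjusted p = 0.0258).

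Markers of other cell types were counted in all 8 libraries. The 16 genes of primitive endoderm summed to 464 to 592 normalised CPM with 100 cells and 528 to 569.8 with 10000 cells, which overlap. The list of fibroblast genes summed to 121 to 154 normalised CPM with 100 cells and 231 to 256 with 10000 cells. Of its 15 members 4 had no count in the 8 libraries and 6 were tested. Fn1 (chr1:71632047-71699808), fibronectin, made up most of the sum and was lower with 100 cells, at 124, 105, 108 and 138 against 226, 214, 238 and 228 (log2 fold change -0.93 ± 0.11 SE, adjusted p = 7.56e-05). The median log2 fold change of those 6 was -1.14. Of 8 genes of primitive endoderm tested (median -0.25), Sparc (chr11:55207661-55233582), a matrix protein, was higher with a log2 fold change of 0.39, and the laminin genes Lama1 (chr17:68046605-68171985) and Lamc1 (chr1:155066052-155179916) were lower with -1.20 and -0.36. In primed epiblast genes (median -0.13) 1 of 13 passed, Lefty2 (chr1:182823239-182829238), an inhibitor of Nodal, at 68.1, 48.2, 37.1 and 31.3 against 83.5, 98.8, 89.8 and 75.1 (log2 fold change -0.95 ± 0.18 SE). Of 9 genes of the two-cell-like state tested (median -0.52), Eif1a, a translation initiation factor, was lower (-0.34), and Zscan4c was at 8.82 ± 4.82 and 13.6 ± 3.1 (SD, n = 4 each). None of 11 lineage transcription factors under Polycomb that were tested passed in edgeR's quasi-likelihood test, with 1 at an unadjusted p under 0.05. Over all genes tested 13.2% passed, 7.91% higher and 5.28% lower. The 1 of 13 primed epiblast, 1 of 9 two-cell-like and 1 of 6 fibroblast genes that passed are near that share. These lists were not matched for level, and over all genes the median was -0.80 in the lowest quintile of level. The part of such cells in the differences was not tested.

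Of genes of glycolysis 4 of 16 passed the test, of mitotic genes 6 of 22, of stress and immediate early genes 5 of 25 and of chaperones of the endoplasmic reticulum 3 of 22, beside 13.2% of all genes tested. Of 16 glycolysis genes, Eno1 (chr4:149611306-149622982, enolase) and Pgk1 (chrX:103382439-103399038, phosphoglycerate kinase) were higher at 0.35 and 0.47 on the log2 scale. Ldha (chr7:54101174-54110997), lactate dehydrogenase, and Slc2a1 (chr4:118781350-118809934), a glucose transporter, were lower, Ldha at 2209.9, 2194, 2306 and 2262 with 100 cells and 3482, 3462, 3154 and 2809.7 with 10000 cells (log2 fold change -0.52 ± 0.06 SE, adjusted p = 0.000114) and Slc2a1 at -0.78. Of 22 mitotic genes, 5 were higher, with the kinase Cdk1 (chr10:68797896-68815660) at 0.59, and 1 lower, the kinase Aurkb (chr11:68859139-68865166) at 92.8, 81.3, 80.8 and 75.1 against 136, 150.1, 141 and 115 (log2 fold change -0.71 ± 0.12 SE). Of 25 stress and immediate early genes, Hspa8 (chr9:40609359-40613285), a constitutive chaperone, was higher (0.54), and Dnajb1 (chr8:86132074-86136552), its cochaperone, Atf4 (chr15:80085614-80087975), a factor of the integrated stress response, and Hmox1 (chr8:77617517-77624492), a haem-degrading enzyme, were among the 4 that were lower, at -0.55, -0.55 and -1.28. Calr (chr8:87365987-87370830), a calcium-binding chaperone of the endoplasmic reticulum, was the largest of 3 chaperones that were lower out of 22, at 432, 521, 501 and 422 with 100 cells and 839, 754, 750.4 and 827 with 10000 cells (log2 fold change -0.76 ± 0.08 SE, adjusted p = 5.71e-05). Hsp90ab1 (chr17:45704727-45710210), Hsp90aa1 (chr12:111929246-111934605), Eef1a1 (chr9:78326261-78329531) and Npm1 (chr11:33052498-33063206), chaperones, an elongation factor and a nucleolar protein among the genes with most counts, were higher by 0.33, 0.58, 0.44 and 0.78. Ftl1 (chr7:52713314-52715256), the ferritin light chain, was lower at 5103, 5260.3, 4863 and 5279 against 6742, 5696, 6099 and 6598 (log2 fold change -0.30 ± 0.06 SE). The microRNA gene Mir682 (chr13:75782494-75782589) was counted at 1318, 1558, 1267 and 1490.0 with 100 cells and 702, 743, 787 and 738 with 10000 cells (log2 fold change 0.92 ± 0.08 SE), and 1009 of 1179 microRNA genes had no count.

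**Figure D3:**
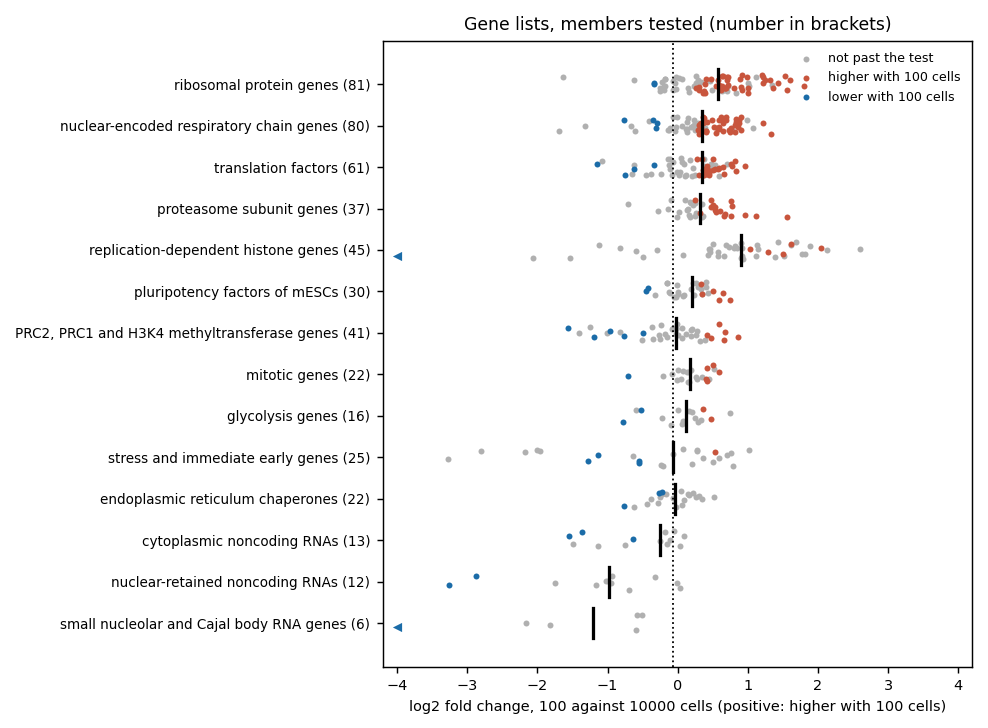
Log2 fold change of 100 against 10000 cells for the members tested of 14 gene lists, with the number tested in brackets. Points are genes, coloured where the adjusted p was under 0.05. Black bars are list medians, the dotted line is the median of all genes tested (-0.07), and triangles at the left edge are genes below -4. Ribosomal protein and histone genes have medians of 0.58 and 0.90 and nuclear-retained RNAs one of -0.97. The lists were not matched for level, and over all genes tested the median was -0.80 in the lowest and 0.14 in the highest quintile of level.

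Olfactory and vomeronasal receptor genes, which stem cells are not known to use, served as a measure of counts away from expressed genes. Their share was 0.00311 ± 0.000430 percent of counts outside Rn45s with 100 cells and 0.00785 ± 0.00474 percent with 10000 cells (SD, n = 4 each, two-sided exact permutation test, p = 0.0857), and the groups overlapped. At equal depth 4, 15, 10 and 9 of 1484 such genes had a count with 100 cells and 25, 53, 99 and 135 with 10000 cells. Only 7 of these genes passed the filter on low counts, and none of them passed the test in edgeR (0 at an unadjusted p under 0.05). Genes of this list could pass the filter through counts in a single group, so that fold changes of the 7 do not stand for the list. The H3K27me3 libraries of 10000 cells, which also had the most genes of all at equal depth, held the highest numbers. The part of these counts in the number of genes detected was not tested.

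In the co-assay, the fold changes moved with the level of the genes, and less with their base composition and length. In the lowest quintile of level, 0.642 to 4.72 normalised CPM over the 8 libraries, the median log2 fold change was -0.80, and in the highest quintile, from 89.7, it was 0.14. The same 8 libraries gave the level and the fold change, and a low gene could pass the filter through counts in a single group. The relation of level and fold change, also as a correlation, is therefore partly fixed by how genes were chosen. The highest quintile held 720 of the 989 genes that were higher with 100 cells and 260 of the 660 that were lower. By the GC content of exons, the median fell from 0.12 in the quintile under 44.8% to -0.30 in the quintile above 56.4%, where 8.72% of genes were lower with 100 cells against 1.28% in the first. By exon length it was 0.07 in the quintile up to 1694 bases and -0.13 in that from 5192 bases. Across the genes, Spearman's rho with the fold change was 0.35 for the mean level, -0.23 for GC content and -0.13 for exon length, and genes are not independent replicates. Within the highest quintile of level alone, the medians were 0.24 and 0.05 in its lowest and highest quintiles of GC content, and 0.27 and 0.08 in its shortest and longest quintiles. Both antibodies showed these steps separately, with medians of 0.17 and -0.21 (H3K4me3) and 0.12 and -0.28 (H3K27me3) in the lowest and highest quintiles of GC content. Without an antibody the step by GC content was wider, with medians of 0.72 and -0.41. By level the medians there were -0.39 and 0.12 in the lowest and highest quintiles.

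**Figure D4:**
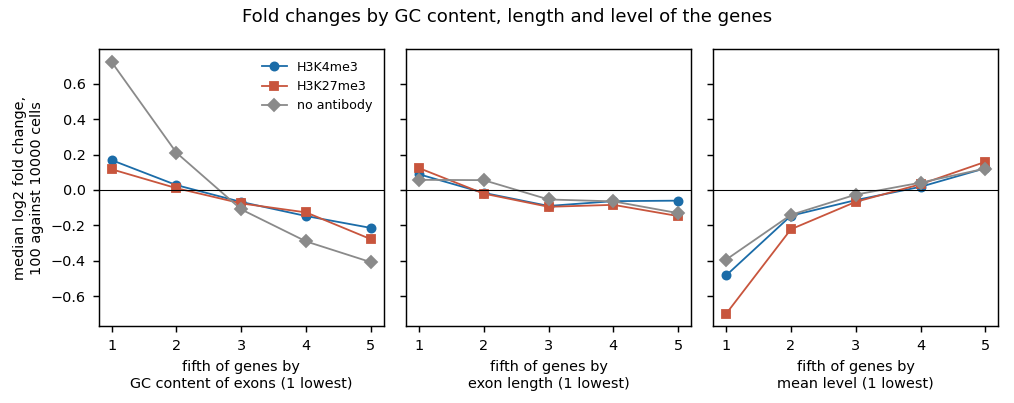
Median log2 fold change of 100 against 10000 cells in quintiles of genes by GC content of exons, exon length and mean level over the 8 libraries, for the H3K4me3 and H3K27me3 libraries and those without an antibody. With H3K4me3 the medians run from 0.17 to -0.21 with rising GC content, and in all 3 series they rise with the mean level.

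Genes that passed with either antibody mostly had the same direction with the other. In the same fit of 8 libraries, with a spread and a filter that both antibodies share, the contrast of the H3K4me3 libraries gave 454 genes (3.63%), 314 higher (2.51%) and 140 lower (1.12%) with 100 cells, and that of the H3K27me3 libraries 648 (5.19%), 432 higher (3.46%) and 216 lower (1.73%). All 454 genes of the first had the same direction in the second, where 320 of them passed as well, and 634 of the 648 genes of the second (97.8%) had the same direction in the first. Without 1 of the libraries, these counts ranged from 99 to 842 (H3K4me3) and from 97 to 1179 (H3K27me3). Over all 12497 genes tested, 68.6% had the same direction in both. The test of the difference between the antibodies called 0 genes in edgeR's quasi-likelihood test, with 544 at an unadjusted p under 0.05, and 0 genes in DESeq2. H1f4, with log2 fold changes of 2.26 in the H3K4me3 libraries and 1.04 in the H3K27me3 libraries, and Tbc1d24, with -0.88 and -3.23, were among the named genes with unequal values, and neither passed.

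The libraries of 1000 cells lay between the others for most genes that differed. Their mean log2 level lay between those of 100 and 10000 cells in 872 of the 989 genes that were higher with 100 cells (88.2%) and in 591 of the 660 that were lower (89.5%), beside 52.9% of all genes tested. The genes that differed were chosen for a gap between 100 and 10000 cells, and a wide gap holds a value more easily. The 52.9% are therefore not a matched background. For the genes that were higher the median steps on the log2 scale were 0.28 from 1000 to 100 cells and 0.34 from 10000 to 1000 cells. For those that were lower the steps were -0.48 and -0.34. Tested in 1 fit of 12 libraries, 889 of 12124 genes (7.33%) differed between 100 and 1000 cells, 437 higher (3.60%) and 452 lower (3.73%) with 100 cells. Between 1000 and 10000 cells 666 (5.49%) differed, 504 higher (4.16%) and 162 lower (1.34%) with 1000 cells. These comparisons share libraries with each other and with the first. Ribosomal protein genes had medians of 0.24 and 0.33 in the lower and the upper step, histone genes 0.26 and 0.52, and nuclear-retained RNAs -0.45 and -0.49, beside -0.02 over all genes in each step. Etv5 and Sparc did not follow the order. Etv5 was at 1191, 1232, 1109 and 1169 with 1000 cells, above the means of 1027 with 100 cells and 818 with 10000 cells, and Sparc at 184, 171, 170.2 and 168, below 289 and 219.8.

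Replicates of 100 cells differed more from each other than those of 1000 or 10000 cells. At equal depth, the median absolute log2 difference between the 2 replicates over 8549 genes with at least 10 CPM was 0.35 (H3K4me3) and 0.39 (H3K27me3) with 100 cells, 0.22 and 0.19 at 1000 cells and 0.21 and 0.18 at 10000 cells. Of the ranges of level, the gap was largest between 3 and 10 CPM, where the difference was 0.98 and 1.23 with 100 cells against 0.48 and 0.47 with 10000 cells. From 1 to 3 CPM it was 0.86 against 0.70 with either antibody. Genes there hold few counts at this depth, so that these values follow steps of single counts and do not measure the spread. Above 1000 CPM the difference was 0.09 and 0.09 against 0.15 and 0.08. Over all genes tested, the biological coefficient of variation was 60.1% with 100 cells, 8.47% with 1000 cells and 7.43% with 10000 cells, and with a mean of at least 10 CPM it was 32.1%, 8.10% and 7.33%. The fit used 1 spread per gene for both cell numbers. With a variance for each cell number (limma voom, chosen after seeing the data) 1782 genes differed, of which 1506 were among the 1649.

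**Figure D5:**
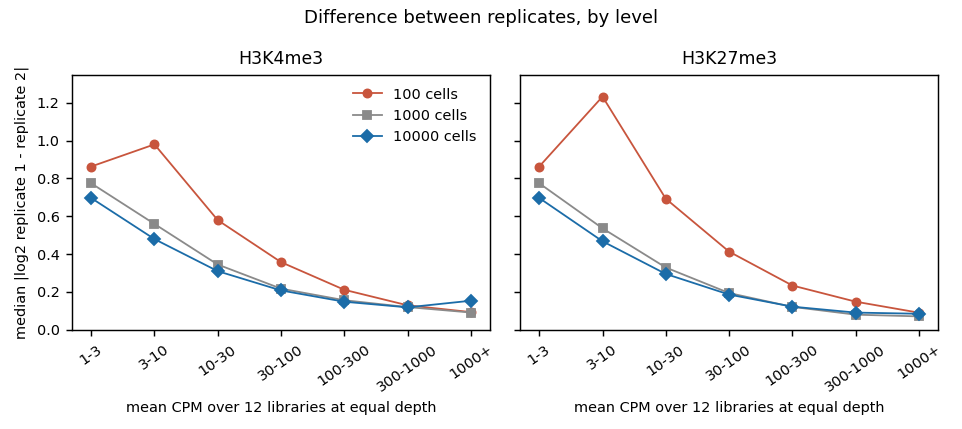
Median absolute log2 difference between replicates 1 and 2 at equal depth, on log2(CPM + 1), for genes binned by mean CPM over the 12 libraries, in panels for H3K4me3 and H3K27me3. Lines are the 3 cell numbers; from 3 to 300 CPM the line of 100 cells lies above the other two, which run close to each other.

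Without an antibody, the number of genes that passed between the same cell numbers depended on the model and on single libraries. The replicates of 100 cells held 8375342 and 1487081 counts, and the libraries of 10000 cells had Hprt at 72 and 125 normalised CPM, below all 12 libraries of the co-assay, and Fn1 at 489 and 426, above all 12. They stood apart in these genes, and the state of those cells and the number of cells cannot be told apart there. Of 11694 genes tested 5 (0.0428%) differed in edgeR's test, 1 higher (0.00855%) and 4 lower (0.0342%) with 100 cells. At an unadjusted p under 0.05 there were 2266. DESeq2 called 623, and edgeR called 808 with a replicate block and 1014 without a filter on low counts. Without 1 library the count of edgeR's test ran from 28 to 1919. Rmrp and Rpph1 were among the 5, with log2 fold changes of -3.70 and -3.61 (adjusted p = 0.0154 and 0.0415), and so was H4c14 (adjusted p = 0.0357), at 0.509 and 1.54 normalised CPM with 100 cells and 56.6 and 36.6 with 10000 cells. Of 1616 genes that differed in the co-assay and were tested here, 1229 (76.1%) had the same direction, beside 63.3% of all genes tested in both. Ribosomal protein genes had a median of -0.00 without an antibody and histone genes one of -0.23. Other lists kept their direction. Translation factors, respiratory chain and proteasome genes had medians of 0.11, 0.14 and 0.28, and nuclear-retained RNAs -0.26, beside -0.02 over all genes. The difference between the 2 comparisons passed the test in 223 of 13314 genes (1.67%), more positive in the co-assay in 90 (0.676%) and more negative in 133 (0.999%), among them Rpl36, with log2 fold changes of 1.81 in the co-assay and -0.10 without an antibody (adjusted p = 0.0106), and Rpl19, with 1.60 and -1.58 (adjusted p = 0.00163).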

How the data were processed

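RNA of the supernatant was sequenced from 100, 1000 or 10000 cells per library. Per the labels and the study's methods, the authors trimmed reads (Trim Galore 0.6.4), aligned them to mm9 without mitochondrial and random chromosomes (STAR 2.5.4b) and deposited counts of read pairs per gene for 25209 genes (featureCounts 2.0.0, refGene annotation, without strand, multi-mapped pairs not counted). Overlapping and antisense genes therefore share reads, and no molecular identifiers were used, so that intervals and floors cover counting error only.

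The counts were tested as deposited without Rn45s, which is one repeated locus and held 15.2% to 34.2% of the counts of the co-assay libraries, with edgeR 4.0.16 (R 4.3.3): TMM scaling, filterByExpr by the 4 groups and the quasi-likelihood test, with antibody and cell number as terms and Benjamini-Hochberg adjustment at 0.05. The order of cell numbers was tested in a fit of 12 libraries. Groups came from the titles, where the antibody is named; expression libraries carry no antibody of their own. Library measures were compared by a two-sided exact permutation test (scipy 1.17.1), and libraries were thinned to 1220628 counts (numpy 2.4.6, 1 draw). Reference sequence was that of NCBIM37.

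The libraries, members and gene lists were chosen with earlier results of these data known. Named genes were, among genes past the test with a mean of at least 10 normalised CPM and no overlap of the groups, the 12 highest and 12 lowest fold changes; the 4 members of each list with the smallest p; the 10 genes with most counts; and the 4 genes with most counts among those at 0 in either group. Ezh2, Eed, Setd1a, Kdm2b, Phc1, Pcgf1, Fgf4, Gdf3, Malat1, Tug1, Nanog, Esrrb, Klf4, Pou5f1, H1f1 and H2ac10 were named after their values were seen. Some genes that the rule names are not reported here. Alternatives were DESeq2 1.42.0, its size factors, library totals, no filter, equal totals, a replicate block, no antibody block, 12 libraries, leaving out each library and limma 3.58.1.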

Additional observations from a re-analysis of the deposited data

Results flagged for a closer look

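The difference between 100 and 10000 cells was not the same in the co-assay and in the libraries without an antibody: it passed the test in 223 of 13314 genes by an interaction term in edgeR's quasi-likelihood test, 90 more positive and 133 more negative in the co-assay. DESeq2 gave 651 genes and a replicate block 660. Leaving out 1 library gave between 13 (without the first library of 10000 cells and no antibody) and 778 (without the second). The libraries of 10000 cells without an antibody stood apart in Hprt and Fn1, so that a difference of the cells and the presence of the co-assay cannot be told apart.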

How the results depend on the processing

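No value of a comparison or a named gene changed sign, but the split of calls turned from 989 higher and 660 lower to 562 and 1198 with library totals, and for H3K27me3 from 432 and 216 to 507 and 672 without H3K27me3 replicate 1 of 100 cells. With labels permuted within each antibody, where 0.0556 is the smallest p possible, the differences in genes detected (-3373), Rn45s share (8.03 percentage points), share of the top 100 genes (3.78) and exon length (-93.75 bases) kept their values and no longer passed. Leaving out 1 library gave -3756 to -2995 genes, 6.56 to 9.28 points, 3.70 to 3.89 points, -99.5 to -86.8 bases and, for receptor genes, -0.00635 to -0.00280 points.

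The 1649 genes became 2478 with 12 libraries in the fit, 335 with more than a 2-fold change asked for as well, and 1030 to 1861 without 1 library; the lowest counts, 1054, 1058 and 1030, were without H3K4me3 replicate 1, H3K27me3 replicate 1 or H3K27me3 replicate 2 of 10000 cells. The H3K4me3 libraries gave 691 genes with DESeq2, 843 without a filter and 99 to 842 without 1 library. The H3K27me3 libraries gave 1072 without a filter and 97 to 1179 without 1 library. Both ranges had their lowest values without a library of 10000 cells of that antibody. The test between antibodies gave 0 to 4 genes, with 4 without H3K27me3 replicate 2 of 100 cells. The ranges were 341 to 1268 for 100 against 1000 cells, lowest without H3K4me3 replicate 2 of 1000 cells, and 460 to 891 for 1000 against 10000 cells. Without an antibody there were 623 genes with DESeq2, 1014 without a filter and 28 to 1919 without 1 library, and for the difference from the co-assay 651, 540 and 13 to 778.

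The variation of 100 cells was 33.9% at equal depth and 32.1% from a mean of 10 CPM, and its ratio to that of 10000 cells was 8.10, 4.5 at equal depth and 4.37 from 10 CPM.

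Replicate numbers did not pair the co-assay libraries: deviations of same-numbered libraries correlated between -0.109 and 0.112. The libraries without an antibody were not in this check and differed by replicate number. Their median exon lengths with 100 and 10000 cells were 2017 and 1990 bases in replicate 1 and 2249 and 2165 bases in replicate 2. A replicate block gave 1787 genes in the comparison of 100 and 10000 cells, 795 with H3K4me3, 1035 with H3K27me3, 808 without an antibody and 660 for the difference from the co-assay.

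Of the values of named genes under other settings, 1029 of 1047 kept their direction and call, and 762 of 847 without 1 library. Mob1b, Etv5, Id1, Sparc, Hspa8, Pgk1, Ube2c and Cdc20 lost their call with library totals, Mob1b, Id1 and Lamc1 at equal depth, Snord52 with a replicate block, and P4hb without an antibody block and in limma. Without 1 library 23 genes lost it, most often without a library of 10000 cells. The cause was not tested. Depth limits low genes: a gene without a count in the 1440010 counts of the shallowest library may be present.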
